A study of Mus musculus with 24 samples.

Results

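The immediate early genes examined here were 10 named genes, Fos, Fosb, Jun, Junb, Atf3, Egr1, Klf6, Ier2, Ier3 and Zfp36, out of 55421 genes in the count table of isolated mouse hepatocytes. They were chosen by name with earlier results of these data known, one row of the table each. Shares of all genes given beside their counts therefore describe the counts and are no independent test. All 10 passed the filter on low counts that left 13583 genes for testing. Their levels were described in every mouse and compared between young and old animals, between diets and between the 2 batches that the labels name.

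Immediate early genes are transcribed within minutes of a stimulus such as a growth factor, a cytokine, mechanical strain or the enzymatic dissociation of a tissue, without need of new protein. Signals through the MAP kinases act on factors already bound at their promoters, and the transcripts are short-lived, so that levels rise and fall quickly. In liver they are known for their induction after partial hepatectomy and during cell isolation, and their products then regulate further genes.

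The libraries were polyA-selected RNA from hepatocytes of 24 male mice, isolated by liver perfusion and snap frozen, with 6 mice in each of 4 groups. Young mice on normal diet (YND) and young mice on high-fat diet (YHFD) were C57BL/6N animals of 6 months, whereas old mice on normal diet (OND) and on high-fat diet (OHFD) were C57BL/6J animals of 24 months, so that age and substrain cannot be told apart. The high-fat diet was 58y1 from TestDiet, the normal diet was Teklad global chow, and both were fed for 9 weeks. Ages and diets are those of the labels, and the study's own text gives other ages and another normal diet. Each group was split evenly over batch 1 and batch 2, 3 mice in each, apart from OND with 2 in the first and 4 in the other. The labels number the mice within a group and do not say what a batch stands for.

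The promoters of 8 of the 10 genes were found in RefSeq (build GRCm38.p6), and the 5 in which a motif for the factors that drive these genes was matched are shown so that the letters before the start of genes the results turn on can be read. Each runs from 250 bases before to 50 bases after a transcription start, 5′ to 3′ on the gene's own strand, with the letters of the motif named below for that gene in capitals. The windows are chr12:85473640-85473939 on the plus strand for Fos, chr4:95052173-95052472 on the minus strand for Jun, chr1:191183284-191183583 on the minus strand for Atf3, chr13:5861239-5861538 on the plus strand for Klf6 and chr7:28379179-28379478 on the minus strand for Zfp36. The starts of Atf3 and Zfp36 in this table lie 34706 and 1025 bases inside the genes' annotated spans, and the positions given below count from them.
Fos: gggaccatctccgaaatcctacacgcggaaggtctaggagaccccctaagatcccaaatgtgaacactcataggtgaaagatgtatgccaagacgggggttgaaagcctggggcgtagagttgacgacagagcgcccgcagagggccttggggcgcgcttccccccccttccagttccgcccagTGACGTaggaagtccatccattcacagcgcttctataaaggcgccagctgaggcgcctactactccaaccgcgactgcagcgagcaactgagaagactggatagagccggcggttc
Jun: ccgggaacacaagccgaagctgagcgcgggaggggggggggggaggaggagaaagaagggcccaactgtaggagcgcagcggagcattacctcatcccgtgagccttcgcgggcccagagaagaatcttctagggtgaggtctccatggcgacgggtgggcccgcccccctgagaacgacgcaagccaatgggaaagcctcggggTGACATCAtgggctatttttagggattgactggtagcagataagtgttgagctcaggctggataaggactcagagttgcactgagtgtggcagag
Atf3: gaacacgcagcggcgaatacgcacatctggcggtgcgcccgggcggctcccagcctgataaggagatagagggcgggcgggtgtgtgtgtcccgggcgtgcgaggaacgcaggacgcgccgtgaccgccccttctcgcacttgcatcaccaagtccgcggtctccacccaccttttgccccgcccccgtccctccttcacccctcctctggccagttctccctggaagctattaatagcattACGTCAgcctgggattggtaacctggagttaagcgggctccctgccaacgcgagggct
Klf6: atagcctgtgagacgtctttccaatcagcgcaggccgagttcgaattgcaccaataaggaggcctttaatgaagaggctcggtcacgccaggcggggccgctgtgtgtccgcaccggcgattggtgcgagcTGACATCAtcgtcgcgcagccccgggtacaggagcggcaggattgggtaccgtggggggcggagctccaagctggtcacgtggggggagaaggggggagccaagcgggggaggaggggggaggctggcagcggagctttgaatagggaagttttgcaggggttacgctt
Zfp36: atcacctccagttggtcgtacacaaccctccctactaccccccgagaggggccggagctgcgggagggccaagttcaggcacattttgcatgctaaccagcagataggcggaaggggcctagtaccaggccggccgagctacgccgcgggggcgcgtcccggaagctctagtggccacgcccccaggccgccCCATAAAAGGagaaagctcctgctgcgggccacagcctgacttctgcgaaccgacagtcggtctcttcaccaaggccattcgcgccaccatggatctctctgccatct

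The capitals in Zfp36 mark a CArG box, the element read by serum response factor, at -58 to -49 from the start, and 1.63% of 32851 mouse promoters of this length held one. Those in Fos (-66 to -61) and Atf3 (-8 to -3, on the opposite strand) mark TGACGT, the core of a cyclic AMP response element, held by 7.51% of promoters. In Jun (-45 to -38) and Klf6 (-119 to -112) they mark TGACNTCA, the form of element bound by dimers of Jun with ATF proteins, held by 8.83%. The AP-1 element TGANTCA, held by 7.81% of promoters, was in none of the 8 windows. All motifs were searched on both strands. The full palindrome TGACGTCA, which would count under both TGACGT and TGACNTCA, was in none of these windows. TATAAA, the TATA box, was in Fos at -33 to -28, left in lower case above, and in Junb at 1 to 6, and 13.6% of promoters held it. The Junb window counts from 84978748, upstream of the gene's annotated start at 84978718 on the minus strand. Its TATAAA therefore lies before the annotated start. A match describes letters in this window and is not a measured binding site.

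The libraries held 9200332 to 22185069 counts, with a median of 15552114. Hepatocyte transcripts dominated, with 8 hepatocyte markers summing to 51030 to 161200 CPM (counts scaled to a library total of 1000000) in each mouse. The share of counts from mitochondrial genes ran from 4.26% to 30.7%, and was above 15% in OND replicate 4, OHFD replicate 4 and OHFD replicate 6, where the nuclear transcript Malat1 was also high (2429 to 5097 CPM, against a median of 498). OHFD replicate 2 had the fewest genes detected, 14905. Comparisons of groups and of batches for the 10 genes were also fitted without the 3 libraries of high mitochondrial share and without all 4, and calls that changed are given beside the result. The other gene lists and the batch differences within single groups were not refitted without them.

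Old mice on normal diet had more immediate early transcript than young mice on the same diet. Among the 10 genes, 9 were higher in OND than in YND at an adjusted p under 0.05 (edgeR quasi-likelihood test with batch in the model, Benjamini-Hochberg adjustment over 13583 genes), where 7.26% of all genes tested were higher. The median log2 difference of the 10 genes was 1.43, against 0.01 over all genes, and was 0.94 in batch 1 alone (8 genes). Within either batch all OND mice were above all YND mice for 7 of the 10 genes, which held for 4.93% of all genes. The count of 9 became 6 without the 3 libraries of high mitochondrial share, 5 without YND replicate 4 or 5, 3 with no batch term, 3 and 5 with limma on FPKM at pseudocounts of 1 and 0.1 (Fosb not tested), and 0 in either batch fitted alone, and it stayed at 9 without all 4 libraries. Batch 2 mice were likewise above batch 1 mice for 9 of the 10 by the same test, where 18% of all genes were higher (7 and 8 of the 10 without the 3 and the 4 libraries). Malat1 ran from 216 to 407 CPM in YND and from 371 to 3649 in OND, with medians of 371 in batch 1 and 769 in batch 2, and its part in either difference was not tested. By the same test none of the 10 passed with high-fat diet at either age, while Klf6 passed in young mice with DESeq2 and without the 3 or the 4 libraries. The plot of levels in each mouse shows both differences.

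**Figure D1:**
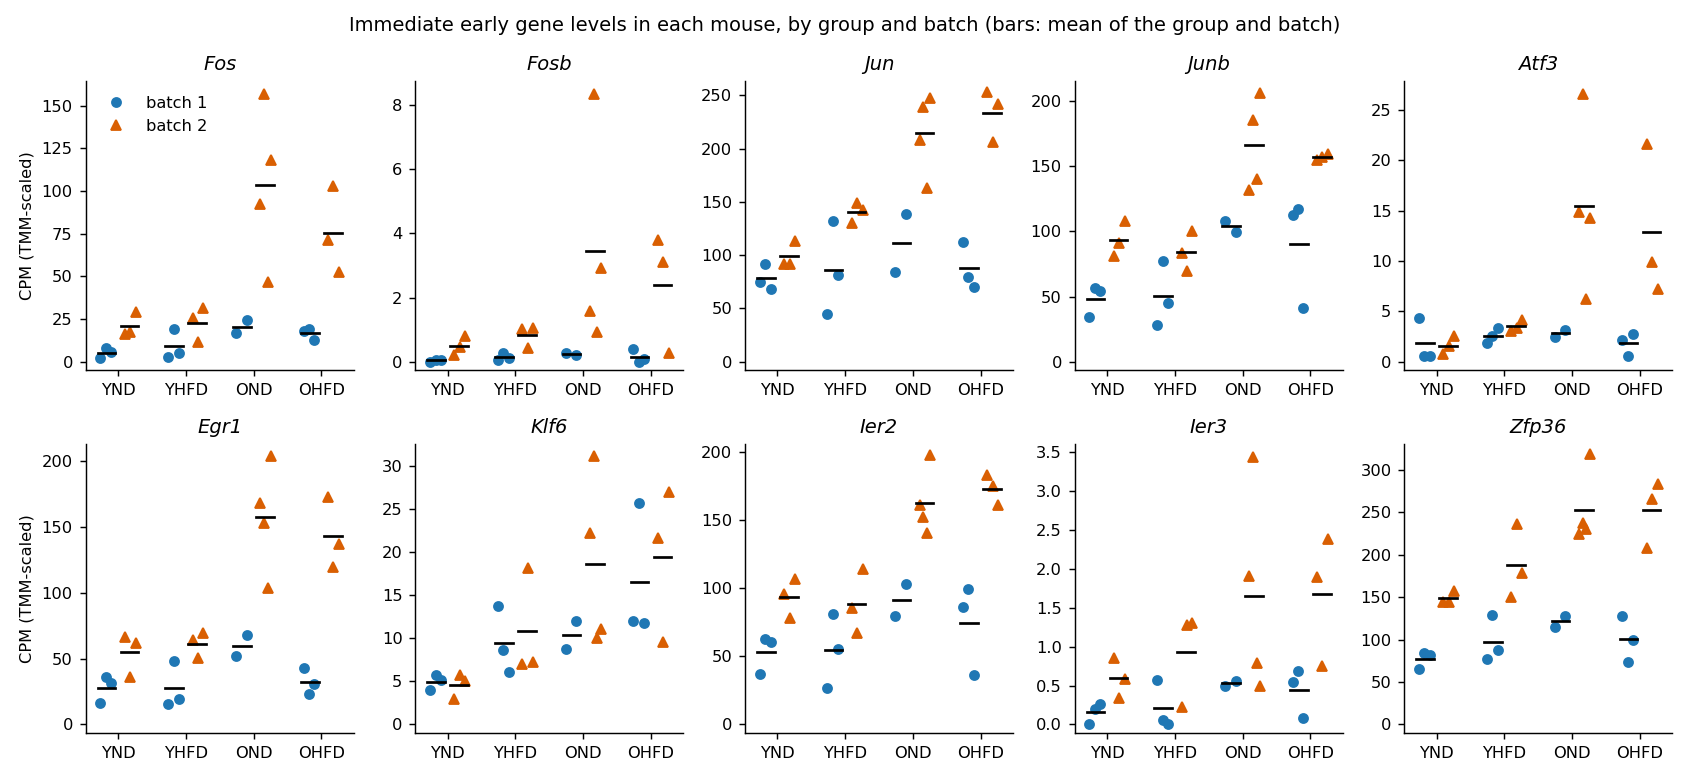
CPM (TMM-scaled, linear axis from 0) of each of the 10 genes in every mouse, by group, with batch 1 as circles and batch 2 as triangles and a bar at the mean of each group and batch. Batch 2 mice lie above batch 1 mice within most groups, without overlap for Zfp36 (64.9 to 129 against 144 to 318 CPM), while Klf6 separates YND from the other 3 groups and not the batches.

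Fos encodes the inducible subunit of AP-1, which pairs with Jun proteins to bind DNA. Its lowest, median and highest levels were 2.18, 12.2 and 29.0 CPM in YND, 2.53, 15.5 and 31.7 in YHFD, 16.8, 69.6 and 157 in OND and 12.6, 35.9 and 103 in OHFD. OND and YND overlapped across batches but not within them, since the YND mice reached 7.92 CPM in batch 1 and 29.0 in batch 2, and the OND mice began at 16.8 and 46.6 CPM, respectively. Fos was 2.22 ± 0.40 higher in OND than in YND on the log2 scale (± SE throughout, adjusted p = 0.00318), the smallest adjusted p among the 10 genes. The same comparison gave 1.99 ± 0.68 in batch 1 alone and 2.30 ± 0.43 in batch 2 alone. Neither passed the threshold, which 93 of 13543 and 2 of 14243 genes passed in fits of that size.

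Fosb, its paralog, was scarce and listed at 0 in 1 YND and 1 OHFD mouse. It ranged from 0 to 0.803 CPM in YND with a median of 0.139, from 0.0575 to 1.07 in YHFD with a median of 0.353, from 0.211 to 8.33 in OND with a median of 1.25 and from 0 to 3.79 in OHFD with a median of 0.339. A single mouse, OND replicate 4, held the highest Fosb, Fos, Atf3, Ier3 and Klf6 of all 24. Fosb was 2.70 ± 0.72 higher in OND than in YND (adjusted p = 0.0203), and 2.03 ± 0.63 (adjusted p = 0.0636) without the 3 libraries of high mitochondrial share. Over the 8 alternatives in which Fosb could be tested the adjusted p lay between 0.000777 and 0.208.

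Jun and Junb, the partners of Fos, were abundant in every mouse. Jun had lowest, median and highest levels of 68.2, 91.6 and 113 CPM in YND, 44.99, 131 and 149 in YHFD, 84.6, 186 and 248 in OND and 70.4, 159 and 253 in OHFD. All groups overlapped, and the 2 highest mice of all were OHFD replicate 4 and OND replicate 6, both of batch 2. Jun was 0.81 ± 0.22 higher in OND than in YND (adjusted p = 0.0219). For Junb the levels were 34.3, 68.5 and 108 CPM in YND, 28.2, 73.3 and 99.9 in YHFD, 99.5, 136 and 206 in OND and 41.6, 136 and 159 in OHFD. The lowest OND mouse stood near the top of the young mice, so OND and YND overlapped across batches but not within either. Junb was 0.94 ± 0.22 higher in OND than in YND (adjusted p = 0.00968). It was the only one of the 10 genes past the threshold in OHFD over YHFD, at 0.87 ± 0.22 (adjusted p = 0.0399). Junb overlaps Prdx2, Jun overlaps Junos, Zfp36 overlaps Gm44710 and Atf3 overlaps the small RNA gene Gm24748, each on the opposite strand. The strand setting of the counting is not given in the sources used here. The overlap may therefore raise or lower these counts, which was not tested.

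Atf3, a stress-inducible member of the ATF family that dimerizes with Jun proteins, was low in young mice. It measured 0.597 to 4.35 CPM in YND with a median of 1.14, 1.90 to 4.15 in YHFD with a median of 3.18, 2.47 to 26.6 in OND with a median of 10.2 and 0.615 to 21.6 in OHFD with a median of 4.97. The high values were those of old mice in batch 2, all 7 of which (6.22 CPM or more) exceeded all other mice. This split was read off the values, and the share of all genes that show it was not counted. In batch 1 the old mice (0.615 to 3.17 CPM) lay inside the range of the young (0.597 to 4.35 CPM). The OND difference was 2.06 ± 0.61 over both batches (adjusted p = 0.0344), 0.60 ± 0.81 in batch 1 alone and 3.25 ± 0.55 in batch 2 alone, and the difference between these was not tested. Without the 3 libraries of high mitochondrial share it was 1.86 ± 0.55 (adjusted p = 0.0519), and its alternatives ranged from 4.31e-11 to 0.997.

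Egr1 encodes a zinc finger transcription factor and is induced through serum response elements. Its lowest, median and highest levels were 16.2, 36.0 and 66.3 CPM in YND, 15.5, 49.3 and 69.3 in YHFD, 51.9, 129 and 204 in OND and 23.2, 81.3 and 173 in OHFD. Within a batch every OND mouse was above every YND mouse, and within every group each batch 2 mouse was above each batch 1 mouse. Egr1 was 1.30 ± 0.28 higher in OND than in YND (adjusted p = 0.00571).

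Klf6, a Kruppel-like zinc finger factor, behaved differently. It had lowest, median and highest levels of 2.91, 5.09 and 5.79 CPM in YND, 6.09, 7.91 and 18.1 in YHFD, 8.76, 11.6 and 31.1 in OND and 9.55, 16.8 and 26.9 in OHFD. All 6 YND mice were below all 18 others, whatever the batch, and the share of all genes with that split was not counted. Klf6 was the 1 gene of the 10 without overlap between OND and YND over both batches, which held for 2.08% of all genes. It was 1.65 ± 0.34 higher in OND than in YND (adjusted p = 0.00485) and 1.90 ± 0.34 higher in OHFD than in YND (adjusted p = 0.000555). Its batch difference was 0.27 ± 0.24 (adjusted p = 0.396), the smallest of the 10.

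Ier2, a nuclear protein of the early response, had levels of 37.3, 70.6 and 107 CPM in YND, 27.1, 74.2 and 114 in YHFD, 79.5, 147 and 198 in OND and 36.7, 131 and 183 in OHFD as lowest, median and highest. It was 0.78 ± 0.23 higher in OND than in YND (adjusted p = 0.0349), with overlap between the groups across batches and none within a batch. Without the 3 libraries of high mitochondrial share the difference was 0.82 ± 0.25 (adjusted p = 0.0562), and without all 4 it was 0.82 ± 0.24 (adjusted p = 0.0391). Ier3, a regulator of apoptosis, was near the limit of detection, with 0 to 0.847 CPM in YND, 0 to 1.31 in YHFD, 0.490 to 3.43 in OND and 0.0805 to 2.38 in OHFD. The groups overlapped. Its OND difference, 1.56 ± 0.69, did not pass the threshold (adjusted p = 0.171), and all 11 mice of batch 1 were at 0.691 CPM or less.

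Zfp36 encodes tristetraprolin, an RNA-binding protein that promotes the decay of transcripts with AU-rich elements, early cytokine messages among them. It was the most abundant of the 10 by CPM, with lowest, median and highest levels of 64.9, 114 and 158 in YND, 76.6, 139 and 236 in YHFD, 115, 228 and 318 in OND and 73.4, 168 and 284 in OHFD. OND and YND overlapped across batches but not within either. Zfp36 was 0.71 ± 0.16 higher in OND (adjusted p = 0.00638), the smallest difference among the 9 that passed and also the gene with the least spread between mice of a group and batch (residual SD 0.28 on the log2 scale). By comparison, the SD was 1.01 for Fosb, 0.98 for Ier3, 0.87 for Atf3 and 0.80 for Fos, and 0.35 for the median gene tested.

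Levels between genes were compared as CPM per kilobase of annotated exon (GENCODE M21, mean ± SD, n = 24). Ier2 was highest at 67.1 ± 32.2, followed by Zfp36 at 46.2 ± 21.2, Junb at 44.2 ± 20.9, Jun at 42.6 ± 20.2, Egr1 at 16.6 ± 12.3 and Fos at 16.1 ± 17.5. The last 4 were Klf6 at 2.77 ± 1.81, Atf3 at 2.71 ± 3.18, Ier3 at 0.725 ± 0.743 and Fosb at 0.177 ± 0.299. Between neighbours in this order only Jun and Egr1 differed by more than the larger SD of the pair. Within single groups Ier2 was highest and Fosb lowest in all 4, whereas neighbours changed places, with Egr1 at 9.21 ± 4.25 and Fos at 5.56 ± 4.17 in YND against 27.8 ± 13.4 and 32.3 ± 23.8 in OND (n = 6). The authors' FPKM were not used for this order, because the length that mean CPM and mean FPKM imply together was 53504 bases for Atf3, above its whole annotated span of 47744 bases with introns. For the other 9 genes the implied length was 0.658 to 1.79 times the span.

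**Figure D2:**
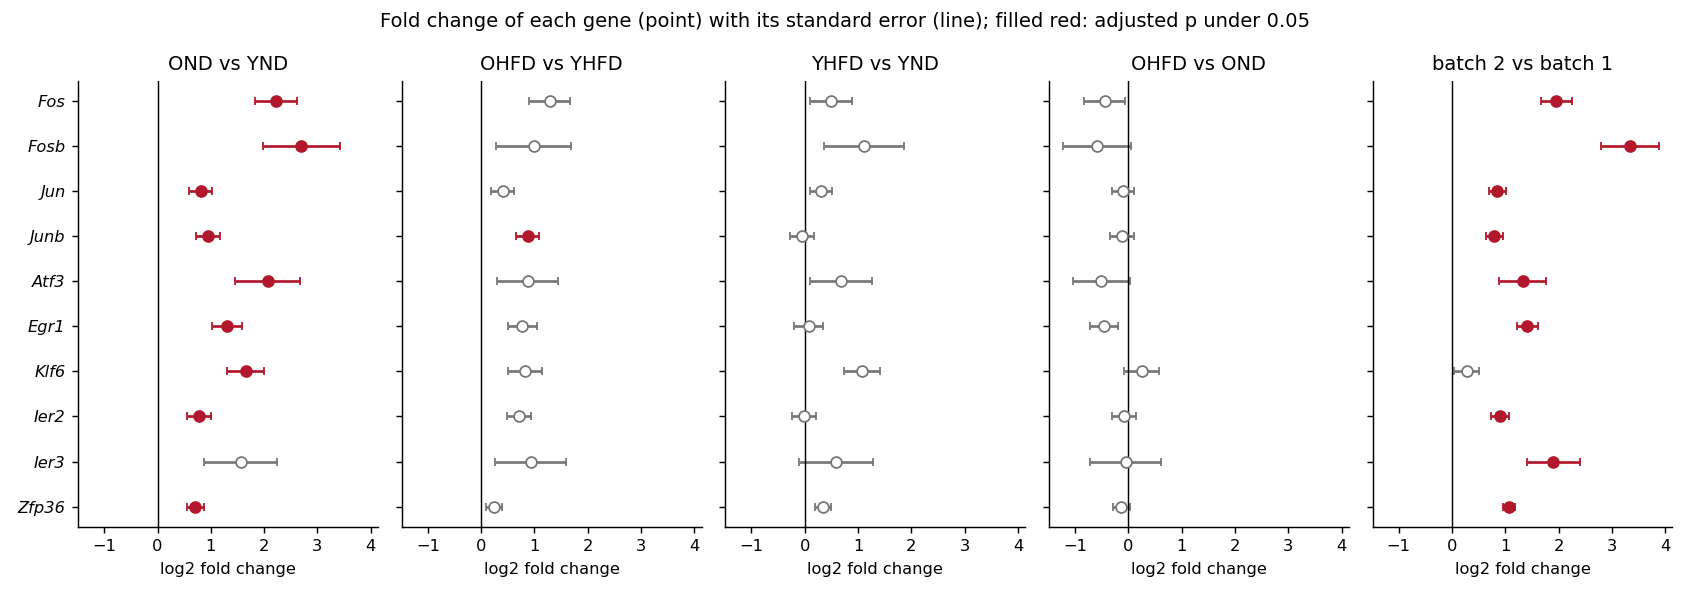
Log2 fold change of each gene (point) with its standard error (line) for age under each diet, diet at each age and batch, from the edgeR fit to all 24 mice, filled in red where the adjusted p was under 0.05. In OND over YND 9 points are red and in batch 2 over batch 1 also 9, against 1 in OHFD over YHFD and 0 in either diet comparison.

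Age was also compared under high-fat diet. All 10 genes had positive log2 differences in OHFD over YHFD, from 0.24 for Zfp36 to 1.29 for Fos with a median of 0.85. That median was 0.51 without the 3 libraries of high mitochondrial share, 0.55 without all 4 and 0.30 in batch 1 alone, where 6 of the 8 genes tested were positive. Only Junb passed the threshold, where 1.82% of all genes were higher, and 5 of the 10 were under an unadjusted p of 0.05. The call for Junb was lost without the 3 libraries of high mitochondrial share (0.85 ± 0.26, adjusted p = 0.0999), without all 4 (0.71 ± 0.27, adjusted p = 0.38) and without any of 13 single mice. Its adjusted p over all alternatives ranged from 2.28e-05 to 0.603. DESeq2 called Junb, Fos and Ier2 in this comparison, where it called 6.32% of all genes. Markers of other cells here had medians of 1.09 for macrophages (10 of 10 positive), 0.07 for endothelial cells (5 of 7) and 0.52 for stellate cells (6 of 7). The medians were 1.76 for lymphocytes (5 of 5) and 4.37 for neutrophils (3 of 3). Of all these markers only S100a9 passed the threshold, and their part in the comparison was not tested. OHFD against YND, which differ in both age and diet, gave 8 genes higher, where 17.3% of all genes were, with 5 without the 3 libraries (Jun, Egr1 and Ier2 lost), 4 without all 4 (Junb lost as well) and 4 without YND replicate 5. Klf6 (1.90 ± 0.34) and Fos (1.77 ± 0.39) were among these and did not overlap between the groups within either batch, which held for 5.38% of all genes. In the same comparison 9 of 10 macrophage, 7 of 7 endothelial, 5 of 7 stellate and 3 of 3 neutrophil markers were higher, and their part in it was not tested.

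High-fat diet was the second question of the design. In young mice 0 of 10 genes passed the threshold in YHFD over YND by edgeR (3.5% of all genes did), 2 were under an unadjusted p of 0.05, and DESeq2 called 1 (9.24% of all genes). The median log2 difference was 0.41 (0.24 in batch 1 alone), against 0.01 over all genes. Klf6 came closest at 1.08 ± 0.33 (adjusted p = 0.0699), with every YHFD mouse above every YND mouse, which held for 1.77% of all genes. Its adjusted p lay on either side of the threshold under the alternatives, from 2.82e-06 to 0.588 with 5 of 12 past it, and Klf6 was the gene that DESeq2 called. It passed without the 3 libraries of high mitochondrial share (1.10 ± 0.31, adjusted p = 0.0339) and without all 4 (1.10 ± 0.27, adjusted p = 0.0126). Malat1 had medians of 306 CPM in YND and 632 CPM in YHFD, and its part in the difference of Klf6 was not tested. Markers of other cells had positive differences in the same comparison, with medians of 2.22 for 10 macrophage markers (1 past the threshold, Cd5l), 1.45 for 7 endothelial markers (1, Stab2) and 1.68 for 7 stellate markers (2, Rgs5 and Dcn). All 24 of these were positive, and their part in the difference of Klf6 was not tested. In old mice 0 of 10 passed in OHFD over OND by edgeR (3.01% of all genes did), 0 were under an unadjusted p of 0.05, and DESeq2 called 0 of 8 (8.37% of all genes), giving no adjusted p for Fosb and Ier3. Here 9 of 10 differences were negative, with a median of -0.13 (-0.21 and -0.25 without the 3 and the 4 libraries, -0.35 in batch 1 alone and -0.02 in batch 2 alone) and a range from -0.59 for Fosb to 0.25 for Klf6. Without all 4 libraries these ends changed sign, to 0.38 ± 0.60 for Fosb and -0.19 ± 0.35 for Klf6, neither of them past the threshold.

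Whether the effect of diet differed with age was tested by the interaction term. All 10 estimates were negative, from -1.71 ± 0.98 for Fosb to -0.07 ± 0.32 for Ier2, with a median of -0.58 against -0.03 over all genes, although 2 were positive in batch 2 alone. Markers of other cells were negative as well, 10 of 10 for macrophages with a median of -2.42, 7 of 7 for endothelial cells (-1.40) and 7 of 7 for stellate cells (-1.80), none of them past the threshold, and their part in these estimates was not tested. The edgeR test called 0 of the 10 and 0 of all 13583 genes (0%), DESeq2 called 0 of the 10, and 1 was under an unadjusted p of 0.05. That gene was Zfp36, at -0.47 ± 0.22 (adjusted p = 0.531). Over all genes 1247 were under that unadjusted p. The YND mice are the controls of 3 of the comparisons given here, so the comparisons are not independent.

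The batch difference was larger than the age difference on normal diet for 6 of the 10 genes, Fosb, Jun, Egr1, Ier2, Ier3 and Zfp36, although the sizes of these differences were not tested against each other. Without the 3 libraries of high mitochondrial share the order turned for Jun (batch 0.74, age 0.81) and Egr1 (batch 1.29, age 1.35). It also turned for these 2 genes without all 4. Fosb was 3.34 ± 0.54 higher in batch 2 than in batch 1 (adjusted p = 0.000139), with 0 to 0.390 CPM in the 11 batch 1 mice and 0.212 to 8.33 in the 13 batch 2 mice. Fos was 1.96 ± 0.29 higher (adjusted p = 6.34e-05), with 2.18 to 24.2 CPM in batch 1 and 11.5 to 157 in batch 2. These ranges overlapped, and the YND mice of batch 2 (16.4 to 29.0 CPM) covered the same levels as the OND mice of batch 1 (16.8 to 24.2 CPM). Egr1 was 1.41 ± 0.20 higher (adjusted p = 4.6e-05), with a median of 31.7 CPM in batch 1 and 104 in batch 2.

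Zfp36 separated the batches completely, at 64.9 to 129 CPM in batch 1 and 144 to 318 in batch 2, and was 1.07 ± 0.11 higher (adjusted p = 4.15e-06). Such a separation of the 11 from the 13 mice held for 0.375% of all genes. Within each of the 4 groups taken alone Egr1 and Zfp36 did not overlap between batches, which held for 2.25% of all genes. The remaining calls were Jun at 0.85 ± 0.16, Junb at 0.79 ± 0.16, Atf3 at 1.33 ± 0.44, Ier2 at 0.89 ± 0.16 and Ier3 at 1.90 ± 0.50. The call for Atf3 was lost without the 3 libraries of high mitochondrial share (0.998 ± 0.40, adjusted p = 0.0885) and without all 4 (0.89 ± 0.37, adjusted p = 0.0849). Ier3 was at 1.58 ± 0.56 without the 3 (adjusted p = 0.0523) and at 1.65 ± 0.54 without the 4 (adjusted p = 0.0289). What differed between the batches was not given in the sources used here, and its part in these levels was not tested.

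Fitted within single groups, the batch difference passed the threshold for 7 of 10 genes in OHFD (9.42% of all genes were higher there, and without OHFD replicate 4 the count was 4) and, by edgeR, for 0 of 10 in YND, YHFD and OND, where 6, 7 and 7 were under an unadjusted p of 0.05. Over all genes edgeR called 0, 1 and 0 there, 0% or 0.00736% of those tested. DESeq2 called 2, 1 and 5 of the 10 in these 3 groups, where it called 1.63%, 0.736% and 0.766% of all genes. The estimates for Zfp36 were close to each other, at 0.95 ± 0.22, 0.95 ± 0.22, 1.05 ± 0.25 and 1.33 ± 0.23 in YND, YHFD, OND and OHFD. For Atf3 they were -0.26 ± 0.67, 0.43 ± 0.64, 2.45 ± 0.74 and 2.80 ± 0.68 in the same order. That the batch difference of Atf3 was larger in old mice was not tested.

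**Figure D3:**
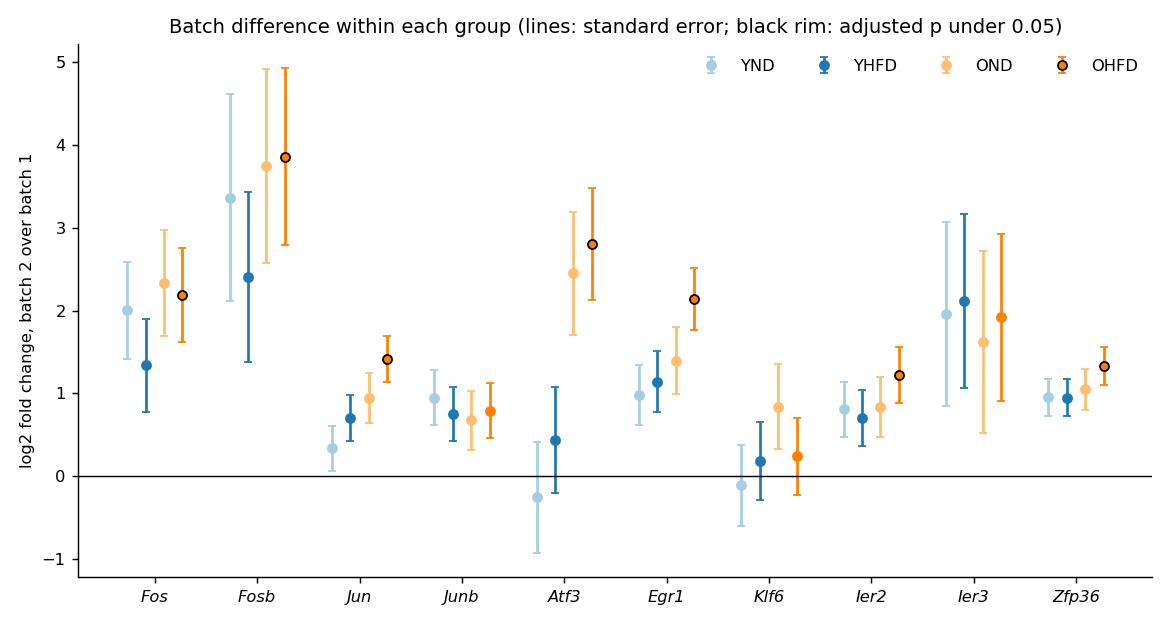
Log2 fold change of batch 2 over batch 1 within YND, YHFD, OND and OHFD for each gene, with standard errors and a black rim where the adjusted p was under 0.05 in the fit of 8 group by batch cells. Fos, Fosb, Jun, Junb, Egr1, Ier2, Ier3 and Zfp36 lie above 0 in all 4 groups. Klf6 lies near 0 in most, and Atf3 is at 2.45 and 2.80 in the old groups against -0.26 and 0.43 in the young.

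Other genes of the early response moved in the same comparisons. Of 34 further immediate early genes tested, 11 were higher in OND than in YND and 0 lower, with a median log2 difference of 0.56, and 16 were higher in batch 2 and 0 lower, where 7.26% and 18% of all genes were higher. Btg2, an antiproliferative gene, was 2.07 ± 0.34 higher in OND (adjusted p = 0.00184) and 1.19 ± 0.24 higher in batch 2 (adjusted p = 0.000851). Nfkbiz, a nuclear regulator of NF-κB targets, was 1.14 ± 0.19 higher in OND (adjusted p = 0.00235). In batch 2 the smallest adjusted p values of this list belonged to Dusp1, the MAP kinase phosphatase, at 1.14 ± 0.14 (adjusted p = 1.68e-05) and Klf2, a factor best known from endothelium, at 2.64 ± 0.35 (adjusted p = 3.19e-05). Among 13 genes of the Zfp36 family and early inflammatory transcripts, 8 were higher in OND and 5 in batch 2 against the same shares of all genes, led with age by the chemokine Cxcl1 at 2.71 ± 0.36 (adjusted p = 0.000412). Nfkbiz is in both of these lists.

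Of 22 upstream kinases and factors tested, 0 passed in OND over YND by edgeR and 1 was under an unadjusted p of 0.05, with a median of -0.06, and 2 were higher and 5 lower in batch 2, where 18% of all genes were higher and 14.2% lower. Among the other AP-1 relatives 0 of 11 passed with age by edgeR (5 were under an unadjusted p of 0.05, with Maf at 1.12 ± 0.36 and an adjusted p of 0.0525) and 5 were higher in batch 2, Jund among them at 0.71 ± 0.13 (adjusted p = 0.000401). Of 14 feedback inhibitors of MAP kinase signaling 2 were higher with age, where 7.26% of all genes were, and the list's median was 0.17. These were Spry2 at 2.61 ± 0.77 (adjusted p = 0.0344) and Spry1 at 1.30 ± 0.39 (adjusted p = 0.0359). Of 13 heat shock genes tested, 0 were higher in OND at either an adjusted or an unadjusted p under 0.05 by edgeR, and 1 was lower (Hspa1b, which fell by 1.34 on the log2 scale, adjusted p = 0.0114), where 1.24% of all genes were, and 1 was higher and 6 lower in batch 2, Hspd1 among them at -0.50 ± 0.10 (adjusted p = 0.000774).

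Pairs of genes were compared between mice of the same group and batch. Of the 45 pairs of genes 30 correlated positively once the means of group and batch were removed, and 7 passed a two-sided permutation test with adjustment over the 45 pairs (24 mice, 100000 resamples within group and batch). Junb and Ier2 were closest (Pearson's r = 0.92, Spearman's rho = 0.832, adjusted p = 0.00619 and 0.00934, and r = 0.868 without the 2 mice farthest from the median). Fos passed with Ier2 (r = 0.772, rho = 0.735), Egr1 (r = 0.762, rho = 0.65), Junb (r = 0.756, rho = 0.762) and Fosb (r = 0.61, rho = 0.729), and Jun with Egr1 (r = 0.729, rho = 0.657), at permutation adjusted p of 0.0051 to 0.0336 for r and 0.0087 to 0.0487 for rho. Without 2 mice these r were 0.557 to 0.643.

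The seventh pair was Ier3 with Klf6 (r = 0.696, rho = 0.685, permutation adjusted p = 0.0336 and 0.0424, and r = 0.68 without 2 mice). The correlations of Klf6 with the other 8 genes lay between -0.113 and 0.062. Both genes of a pair come from the same libraries and share their depth and preparation. The number of pairs that passed was 14 without OHFD replicate 2, 13 without the 4 libraries that stand apart and 4 without any one of YND replicate 2, YHFD replicates 1, 2 and 3 or OND replicate 5.

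**Figure D4:**
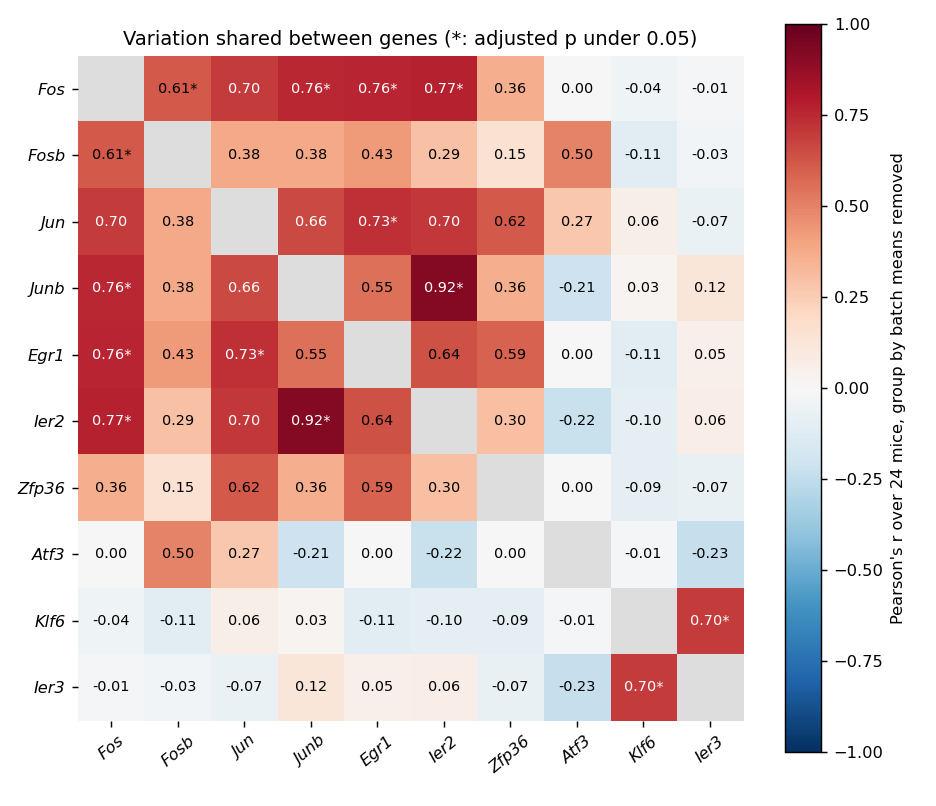
Pearson's r for each pair of genes over 24 mice after removal of the means of group and batch, from blue (-1) through white (0) to red (1), with an asterisk where the permutation p adjusted over 45 pairs was under 0.05. Fos, Jun, Junb, Egr1 and Ier2 correlate positively with each other, with r up to 0.92, although not every such pair passed the test, and Klf6 with Ier3 is at 0.70.

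The 5 genes whose variation between mice was most like the mean of the 10, again with the means of group and batch removed over 24 mice, were Btg2 (r = 0.769), Gatad2b (0.754), Rnf220 (0.73), Csnk2a2 (0.713) and Zfp647 (0.683). These are the highest of all 13583 genes and are given with no test. Of the 5, Btg2 was the only one higher in OND than in YND, and Btg2, Gatad2b (0.32 ± 0.09) and Rnf220 (0.47 ± 0.09) were higher in batch 2.

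Markers of macrophages, endothelial cells and stellate cells were also higher in OND and in batch 2, and their part in the results for the immediate early genes was not tested. In such bulk libraries more cells of a type and more RNA per cell cannot be told apart. All 10 Kupffer cell and macrophage markers were higher in OND than in YND and 9 of 10 in batch 2, as were 5 and 7 of 7 sinusoidal endothelial markers, 6 and 5 of 7 stellate cell markers and 3 and 0 of the 3 neutrophil markers tested (1 under an unadjusted p of 0.05 in batch 2), where 7.26% and 18% of all genes were. The neutrophil markers S100a8 (-0.39 ± 1.07) and S100a9 (-0.39 ± 0.96) had negative differences in batch 2 and Csf3r a positive one (1.39 ± 0.66), none past the threshold. Of 8 hepatocyte markers 0 passed with age by edgeR (1 higher and 1 lower at an unadjusted p under 0.05) and 2 were lower in batch 2. Summed Kupffer cell and macrophage markers ran from 1.95 to 95.7 CPM in YND, 17.2 to 238 in YHFD, 74.2 to 1510 in OND and 106 to 788 in OHFD. Endothelial sums ran from 11.4 to 133, 38.3 to 290, 38.4 to 676 and 24.4 to 541 CPM, and stellate sums from 6.24 to 78.5, 20.5 to 232, 77.3 to 465 and 27.9 to 352 CPM, in the same order. Neutrophil sums ran from 0.0663 to 0.953, 0.169 to 2.15, 0.612 to 65.2 and 0.751 to 44.6 CPM.

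In YND, Marco and Timd4 were each at 0 in 2 mice, Adgre1 in 1, Lyve1 in 1, Col1a1 in 3 and Col3a1 in 1, and elsewhere only Marco, Lrat and Des, each in 1 OHFD mouse, were at 0 among the macrophage, endothelial and stellate markers. The neutrophil markers Cxcr2 and Mpo were at 0 in 3 to 6 and 1 to 6 mice of each group. Lymphocyte markers summed to 0.994 to 5.35 CPM in YND and 3.98 to 36.0 in OND, with 3 of 5 tested higher, and of 2 cholangiocyte markers tested 0 passed with age by edgeR while both were under an unadjusted p of 0.05.

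The 4 mice with the largest Kupffer cell and macrophage sums, OND replicates 3 and 4 and OHFD replicates 4 and 6 (590 to 1510 CPM), were among the 6 mice with the highest Fos, at 92.6, 157, 71.4 and 52.6 CPM in that order. They also had Klf6 at 21.7 to 31.1 CPM and the 4 highest Ier3 values, 1.90 to 3.43 CPM. Of these 4, all but OND replicate 3 were the libraries of high mitochondrial share and high Malat1. The other 2 of the 6 mice with the highest Fos were OND replicate 6 and OHFD replicate 5. These had sums of 74.2 and 108 CPM and Fos at 118 and 103 CPM. The YND mice of the same batch had sums of 52.9 to 95.7 CPM and Fos at 16.4 to 29.0 CPM. In batch 1 YHFD replicate 1 had a sum of 154 CPM with Fos at 2.53 CPM. OHFD replicate 2, the library with the fewest genes detected, had Klf6 at 25.7 CPM with a macrophage sum of 106 CPM. These mice were picked by their values, and their endothelial and stellate sums are not given. The part of other cells in these levels was not tested.

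**Figure D5:**
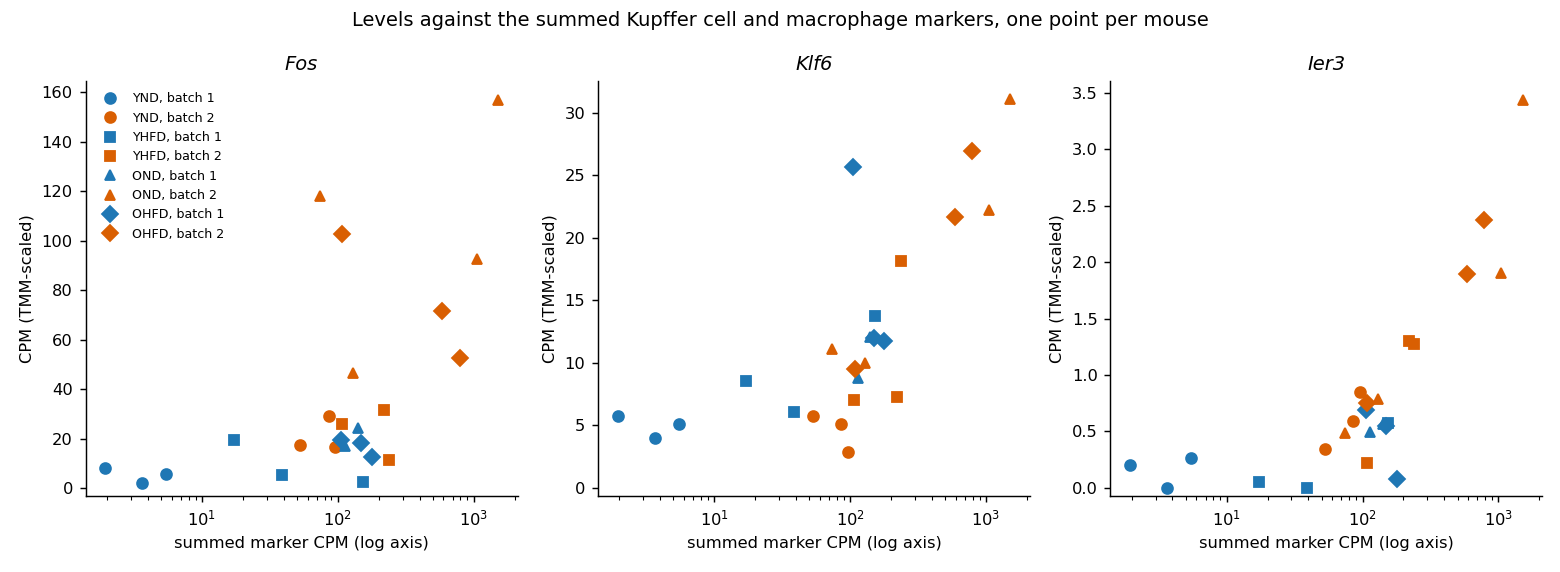
CPM of Fos, Klf6 and Ier3 (linear axes) against the summed CPM of 10 Kupffer cell and macrophage markers (log axis), 1 point per mouse, with shape for group and colour for batch (blue, batch 1; orange, batch 2). The 4 mice with sums of 590 CPM or more had Fos at 52.6 to 157 CPM, and 2 mice with sums of 74.2 and 108 CPM had Fos at 118 and 103 CPM, while Ier3 was at 1.90 CPM or more only in the mice with sums of 590 CPM or more.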

How the data were processed

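RNA was sequenced from hepatocytes of 24 mice. Reads were aligned by the authors to mm10 with STAR (version 2.7.3a per the labels) and counted per gene with HTSeq (0.11.2), and these raw counts were deposited, one column per mouse. The deposited FPKM were computed by the authors with CuffLinks and, as the table's name says, adjusted between batches with ComBat. For Atf3 and Klf6 they imply a length near the whole annotated span, introns included, so a pseudocount weighs more on such genes. The strand setting and the meaning of a batch were not given in the sources used here.

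Counts were filtered by group with filterByExpr (13583 of 55421 genes kept), TMM-scaled and fitted in edgeR 4.0.16 (quasi-likelihood, R 4.3.3) with group and batch over all 24 mice. P-values were adjusted by Benjamini-Hochberg over all genes tested, with a threshold of 0.05, and a standard error is the log2 fold change divided by the root of F. CPM are TMM-scaled. Pairs of genes were tested on log2 CPM with a prior count of 2. The scripts were tested on simulated data. Genes and lists, including the 10 members, were chosen with earlier results of these data known, and the motifs after reading the sequences. All 10 members are named, and from each other list up to 2 genes of smallest adjusted p per comparison. Named from those lists beyond this rule were Gadd45g in YHFD over YND, S100a8 in batch 2 and markers at 0 in some mice. Alternatives were DESeq2 1.42.0, limma 3.58.1 on log2 FPKM, other scaling, filters and models, single batches and left-out mice. Positions come from GENCODE M21 (GRCm38, the build mm10) and promoters from RefSeq. Depth was 9200332 to 22185069 counts.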

Additional observations from a re-analysis of the deposited data

Results flagged for a closer look

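One value stood apart within its group. Junb in OHFD replicate 3 was at 5.38 on the log2 CPM scale, against 6.82 to 7.32 in the other 5 OHFD mice, a gap of 0.743 of the group's range where Dixon's 95% limit for 6 samples is 0.625. Of 40 combinations of gene and group tested, 1 was past this limit, and chance passes about 1 in 20. The limit takes each group as 1 sample and ignores its 2 batches. OHFD replicate 3 was of batch 1, where the other 2 OHFD mice had Junb at 113 and 117 CPM against its 41.6. The same mouse had the lowest Fos, Jun, Ier2 and Ier3 of its group, at 12.6, 70.4, 36.7 and 0.0805 CPM.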

How the results depend on the processing

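Of the age calls on normal diet (9 of 10 genes), 9 were also reached with DESeq2 (12.3% of all genes), and all 10 differences stayed positive in every alternative in which the gene could be tested. The count was 3 with no batch term and with limma on log2(FPKM + 1), 5 with limma on log2(FPKM + 0.1), 0 in batch 1 alone and 0 in batch 2 alone (fewer mice, with Fosb and Ier3 not tested in batch 1), and 5 to 9 with single mice left out, the lowest without YND replicate 4 or 5. OHFD over YHFD (1 gene) gave 6 with no count filter, 3 with DESeq2, 0 in the 8 alternatives of no batch term, either batch alone, only the mice of the 2 groups, limma with either pseudocount and without the 3 or 4 libraries that stand apart, and 0 to 3 with single mice left out. OHFD over YND (8 genes) gave 3 with no batch term, 1 in batch 1 alone, 4 with limma under either pseudocount, 5 and 4 without the 3 and the 4 libraries, and 4 to 9 with single mice left out, the lowest without YND replicate 5. YHFD over YND (0 genes) gave 1 with no count filter, DESeq2, only the mice of the 2 groups and without the 3 or 4 libraries, and 0 to 1 with single mice left out. With no count filter OHFD over OND gave 1 and the interaction 2, both from 0. Batch 2 over batch 1 (9 genes) gave 7 and 8 without the 3 and the 4 libraries and 8 to 9 with single mice left out. DESeq2 on group by batch cells gave 2, 1 and 5 batch calls in YND, YHFD and OND, each from 0, and OHFD (7) gave 4 to 7 with single mice left out, the lowest without OHFD replicate 4. The 7 pairs became 34 when group means only were removed, 13 without the 4 libraries and 4 to 14 with single mice left out. Except where fewer mice or genes entered, the cause was not tested.

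Log2 differences that changed sign belonged to genes not past the threshold. In YHFD over YND, Junb was 0.0513 and Ier2 0.0317 in batch 1 alone, Ier2 was 0.0005 with DESeq2's size factors in edgeR, 0.0003 with DESeq2 and 0.0022 with only the mice of the 2 groups, and Ier3 was -0.13 and -0.48 with limma at pseudocounts of 1 and 0.1. In OHFD over OND, Jun was 0.14, Ier2 0.11, Ier3 0.0604 and Zfp36 0.0152 in batch 2 alone, Fosb 0.0596 and 0.38 without the 3 and the 4 libraries, and Klf6 -0.19 without the 4. In batch 1 alone, Atf3 was -0.51 in OHFD over YHFD and -0.0553 in OHFD over YND, and Jun was -0.0043 in OHFD over YHFD. For the interaction, Junb was 0.0582 and Ier2 0.15 in batch 2 alone, Ier2 0.14 with limma at either pseudocount and Ier3 0.18 at 0.1. With single mice left out, the ranges that crossed 0 were, in YHFD over YND, -0.0831 to 0.71 for Fos, -0.24 to 0.10 for Junb, -0.24 to 0.22 for Egr1 and -0.21 to 0.14 for Ier2. In OHFD over OND they were -0.97 to 0.11 for Fosb, -0.19 to 0.0178 for Jun, -0.21 to 0.0397 for Junb, -0.14 to 0.0827 for Ier2 and -0.26 to 0.31 for Ier3. For the interaction they were -0.21 to 0.13 for Junb and -0.22 to 0.13 for Ier2. For batch they were -0.75 to 1.40 for Atf3 and -0.30 to 0.13 for Klf6 in YND, -0.42 to 0.54 for Klf6 in YHFD and -0.07 to 0.71 for Klf6 in OHFD.

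Replicate numbers are shared between groups but belong to different mice. Over 36 pairs of same-numbered mice the mean correlation of deviations from the group means was 0.182 (-0.32 to 0.551, 21 over 0.1), and -0.002 with batch removed, so the numbers were not taken to pair the mice. With the replicate block in place of batch the calls were 9 in OND over YND, 1 in OHFD over YHFD, 7 in OHFD over YND and 0 in YHFD over YND, OHFD over OND and the interaction. With 2 to 4 mice per group and batch, low levels of Fosb and Ier3, at 0 in some mice, limit what single batches can show.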

Other observations

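Srf, the serum response factor of the upstream list, and Socs3, a cytokine feedback inhibitor among the further immediate early genes, were the genes of these lists past the threshold in OHFD over OND. They were 1 of 22 and 1 of 34 genes tested, where 3.01% of all genes passed. Srf fell by 0.72 on the log2 scale (SE 0.19, edgeR adjusted p = 0.038) and Socs3 fell by 1.79 (SE 0.48, adjusted p = 0.0396). Gadd45b, a growth arrest gene, was at -1.73 ± 0.52 (adjusted p = 0.0648). In young mice 2 of 34 further immediate early genes were higher and 1 lower in YHFD than in YND, where 3.5% of all genes passed. Klf4, a Kruppel-like factor, was 3.01 ± 0.70 higher (adjusted p = 0.0201) and Nfkbiz 0.73 ± 0.19 higher (adjusted p = 0.0386), while Gadd45g, a growth arrest gene, was at -1.98 ± 0.56 (adjusted p = 0.0494). Of the 22 upstream genes Crem, a cyclic AMP response factor, was lower at -0.46 ± 0.12 (adjusted p = 0.0405). Nfkbiz was also 0.72 ± 0.19 higher in OHFD than in YHFD (edgeR adjusted p = 0.0437), together with Ifrd1 at 0.75 ± 0.19 (adjusted p = 0.0371). These were 2 of 34 genes tested, where 1.82% of all genes were higher.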
